A study of Mus musculus with 11 samples.

Results

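Hedgehog response was followed here in 9 genes out of the 24062 in the count table, chosen by symbol: the receptor gene Ptch1, the signal transducer Smo, the co-receptors Boc and Gas1, the ligand-binding inhibitor Hhip, the intracellular inhibitor Sufu, and the transcription factors Gli1, Gli2 and Gli3. All 9 had a row in every library. The RNA came from primary cultures of E15 mouse lung mesenchyme, a population defined by how fast dissociated cells stick to a dish rather than by a surface marker. The cells were grown from 3 genotypes that differ at Sp3, a transcription factor that binds GC-rich promoter elements: WT (Sp3+/+, 4 libraries), Sp3+/- (4 libraries) and Sp3-/- (3 libraries). The knockout allele was carried by the whole embryo rather than by one cell type. No treatment was applied, and the sources do not say whether libraries of one genotype came from separate embryos, so p-values measure only the spread between libraries, which may be technical.

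Hedgehog ligands bind Ptch1 with the help of the co-receptors Boc, Cdon and Gas1. Binding relieves the block that Ptch1 places on Smo, and Smo acts at the primary cilium to free Gli2 and Gli3 from Sufu and from processing into repressor forms. In the embryonic lung the ligand Shh is made by the airway epithelium and received by the mesenchyme, where Ptch1, Gli1 and Hhip are themselves induced, so that their transcripts are commonly used as a readout of the pathway.

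Reads counted on genes ranged from 14113788 to 35351093 in WT, from 13842791 to 59297495 in Sp3+/- and from 9849111 to 45630738 in Sp3-/- libraries. Levels are given as CPM, read counts scaled to the size of the library after TMM normalization. Differences are log2 fold changes of edgeR's quasi-likelihood model, with p-values adjusted over all genes tested by the method of Benjamini and Hochberg. A gene was called at an adjusted p below 0.05. Library titles end in no suffix, 2 or 3, which the sources do not explain. All 3 Sp3-/- libraries have no suffix, whereas WT 2, WT 3 and WT 4 have suffix 3 and WT 1 has none. Among Sp3+/- libraries, replicate 1 has suffix 2, replicates 2 and 3 have suffix 3, and replicate 4 has none in its title although its file name carries a 2. Genotype and suffix therefore cannot be fully told apart, and the members are given by suffix as well as by genotype. Sp3 itself was 14.8 to 18.8 CPM in Sp3-/- libraries, 52.4 to 70.8 in Sp3+/- and 61.3 to 108 in WT, with a log2 fold change of -2.30 (SE 0.21, adjusted p = 0.00611 by edgeR) for Sp3-/- against WT. The Sp3-/- libraries lay below all others, as their labels say, whereas WT and Sp3+/- overlapped, so the Sp3 level does not check the labels of those.

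The cultures expressed the fixed mesenchymal markers (Col1a1, Col1a2, Col3a1, Vim, Pdgfra, Pdgfrb, Tbx4 and Tbx5) at a summed level of 13075 to 22097 CPM in WT, 14928 to 22029 in Sp3+/- and 7230 to 18890 in Sp3-/- libraries. In Sp3-/- against WT 7 of these 8 log2 fold changes were negative, with a median of -0.87. Of the 8, 3 were called lower, against 9.77% of all genes tested. The markers of other cells also differed between libraries. Summed levels of the 5 macrophage markers (Ptprc, Csf1r, Adgre1, Cd68 and Lyz2) were 497 to 2727 CPM in WT and 2553 to 9478 in Sp3-/- libraries, with none of the 5 at 0 in any library. All 5 had positive log2 fold changes in Sp3-/- against WT and 1 was called. Over all genes tested in this comparison 8.76% were called higher and 9.77% lower, the shares for the marker counts that follow. Mesothelial markers summed to 515 to 1113 CPM in WT and to 1193 to 4109 in Sp3-/-, with 2 of 4 called higher. Epithelial markers summed to 14.5 to 33.9 CPM in WT and to 47.3 to 150.2 in Sp3-/-, with 3 of 6 called higher (Epcam, Cdh1 and Krt18). Most of that sum was Krt18 and Krt8 (means of 65.6 and 20.5 CPM in Sp3-/-). The lung epithelial genes Nkx2-1 and Sftpc had means of 0.103 and 0.0508 CPM in Sp3-/-. Their log2 fold changes of -1.85 and -4.72 were not called. A gene was tested if it passed 1 CPM in at least 1 library. Epcam and Cdh1 did so through Sp3-/- libraries alone (at most 0.281 and 0.365 CPM in WT), so their calls are a description. Nkx2-1 and Sftpc did so through WT libraries alone, and Sftpc was at 0 in 2 of 4 WT libraries. Smooth muscle markers summed to 9687 to 20324 CPM in WT and to 1644 to 4067 in Sp3-/-, with 4 of 4 called lower, and the 4 endothelial markers held no called gene. The part of these differences in the Hedgehog values below was not tested. In bulk RNA, fewer cells of a type and less RNA per cell cannot be told apart.

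Per kilobase of the canonical GENCODE transcript, Smo was the most abundant member in WT (mean 23.3 CPM per kb, SD 3.65, n = 4), followed by Gas1 (16.3, SD 8.67), Sufu (8.48, SD 1.63), Boc (6.19, SD 1.09) and Gli3 (5.12, SD 1.68). The ranges of Smo and Gas1 overlapped, as did those of neighbours from Sufu to Gli3. Ptch1 (2.37, SD 0.354) and Gli2 (2.12, SD 1.22) came next and overlapped too. Gli1 (0.205, SD 0.0456) and Hhip (0.0567, SD 0.0508), the pair commonly used as pathway readouts together with Ptch1, were lowest, and their ranges did not overlap. The other members, Ptch1 included, thus had higher levels per kilobase in WT than Gli1 and Hhip. In Sp3-/- libraries Gas1 (mean 45.3 CPM per kb, SD 27.0, n = 3) stood above Smo (19.7, SD 4.81), although the ranges of the pair overlapped there as well.

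The ligands were near the limit of counting. Shh had 1 read in WT 3, 1 read in Sp3-/- 1 and none in the other libraries. Ihh stayed at or below 0.205 CPM in every library. Dhh, the ligand best known from testis and nerve, ranged from 0.977 to 2.14 CPM in WT and from 0.596 to 1.95 CPM in Sp3-/- libraries, with a log2 fold change of -0.37 (SE 0.49, adjusted p = 0.607 by edgeR).

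Because Sp3 binds GC boxes, RefSeq windows (GRCm38.p6, the build of the counts) from 250 bases before to 50 after a listed start were searched. Both strands were read. The windows of Gli2 and Ptch1 lie inside the gene extents (chr1:118834061-119054405 and chr13:63508328-63573460), so their listed starts are not the outermost ones. Windows were found for 7 of 9 members, those of Gli2, Gli3, Ptch1, Smo, Hhip, Sufu and Gas1. The GC box GGGGCGGGG lay in 4 of the 7, those of Gli3, Ptch1, Hhip and Sufu, and in 11.4% of all 32851 windows. The core GGGCGG, which every such GC box contains, lay in 6 of 7, all but Smo, and in 35.7% of all windows. The Gli site GACCACCCA lay in 0 of 7 and in 0.253% of all windows. Gli2 and Gas1 held the core without the full GC box. A match is a stretch of letters and not evidence of binding. The upstream sequence of Sufu, Gas1 and Hhip and short stretches around a match for Gli3, Ptch1 and Gli2, whose windows overlap annotated transcripts, are shown so that the matches can be seen, 5′ to 3′ on the strand of the gene, with matches in capitals.
Sufu (chr19:46396646-46396895, plus strand): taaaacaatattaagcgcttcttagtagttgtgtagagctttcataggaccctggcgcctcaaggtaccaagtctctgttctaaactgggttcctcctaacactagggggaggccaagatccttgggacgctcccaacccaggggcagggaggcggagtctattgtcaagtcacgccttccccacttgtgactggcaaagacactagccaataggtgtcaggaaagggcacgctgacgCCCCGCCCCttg
Gas1 (chr13:60177536-60177785, minus strand): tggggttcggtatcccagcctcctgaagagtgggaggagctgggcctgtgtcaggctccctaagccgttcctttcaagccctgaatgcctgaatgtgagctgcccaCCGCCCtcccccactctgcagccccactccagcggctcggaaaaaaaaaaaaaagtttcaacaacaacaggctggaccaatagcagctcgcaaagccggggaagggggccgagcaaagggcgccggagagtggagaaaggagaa
Hhip (chr8:80058061-80058258, minus strand): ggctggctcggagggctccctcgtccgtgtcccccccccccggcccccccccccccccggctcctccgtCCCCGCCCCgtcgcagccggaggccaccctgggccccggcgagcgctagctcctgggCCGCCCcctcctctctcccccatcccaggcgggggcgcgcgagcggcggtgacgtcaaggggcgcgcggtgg
Gli3 (chr13:15463536-15463564, plus strand): ttagagggacGGGGCGGGGgtgggggcgc
Ptch1 (chr13:63565809-63565837, minus strand): gtcgcggcgcGGGGCGGGGacgtctgggg
Gli2 (chr1:119053761-119053786, minus strand): gcacgcggcgGGGCGGgcaagctaag

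**Figure D1:**
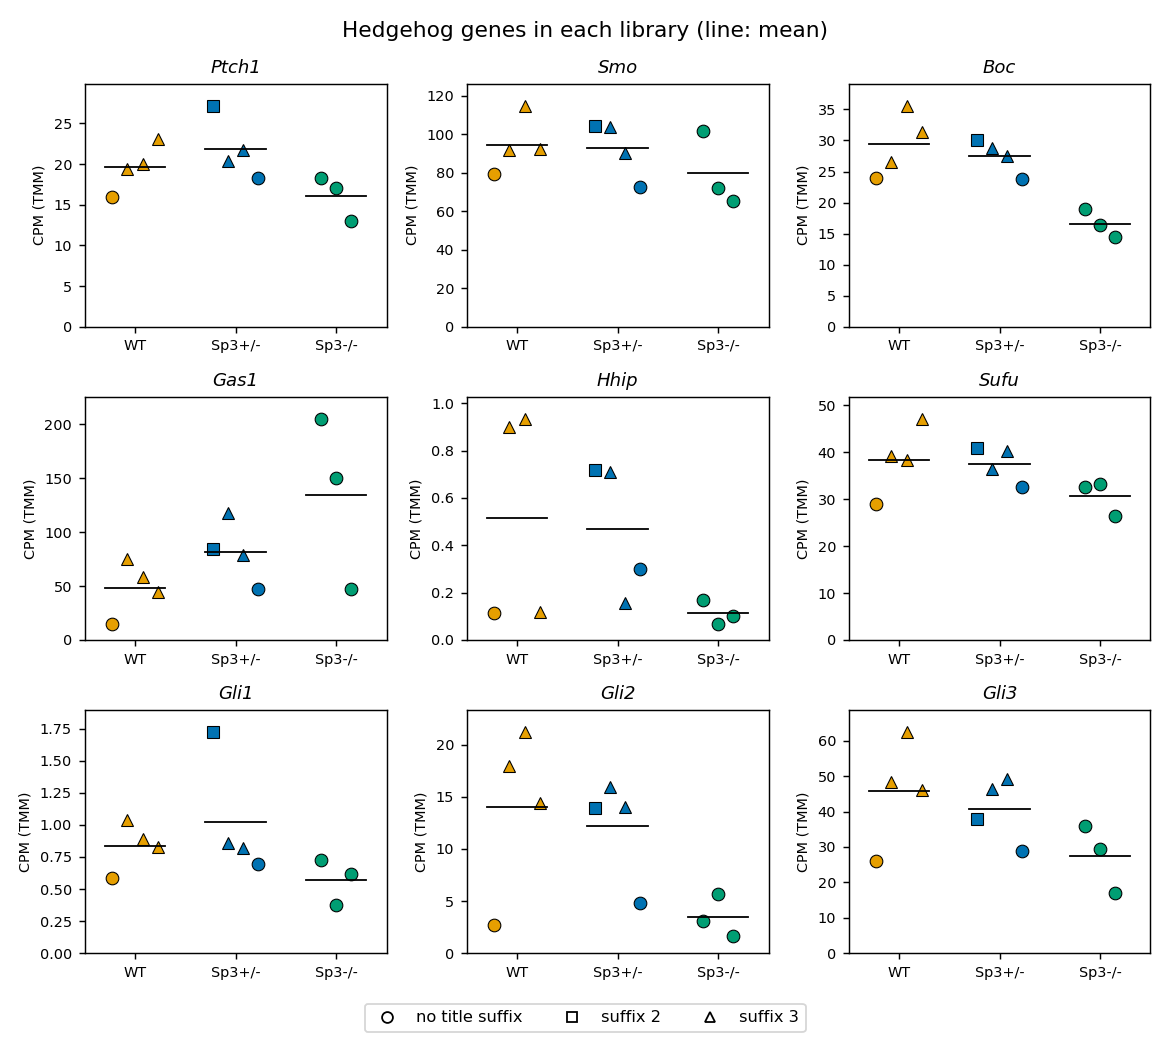
Level of each of the 9 Hedgehog genes (CPM after TMM scaling, linear axis from 0) in every library, by genotype. Circles, squares and triangles mark libraries with no title suffix, suffix 2 and suffix 3, and the line is the genotype mean. The 3 Sp3-/- libraries of Boc (14.4 to 19.0 CPM) lie below every library of both other genotypes, and Gli2 separates by suffix.

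Sp3-/- cells were compared with WT cells to ask which transcripts depend on Sp3. Of the 9 members, 8 passed the filter of CPM above 1 in at least 1 library, and 1 of these, Boc, was called and was lower in Sp3-/- cells. Hhip did not pass. Over all 14025 genes tested, 18.5% were called and 9.77% were called lower, so a single called member out of 8 is no more than the background. The log2 fold change was negative for 7 of 8 members, with a median of -0.43 against -0.0032 over all genes tested. Gli1, among the 7, passed the filter through WT 2 alone, in the group where it is high. The count of signs and the median are therefore a description.

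Boc (GRCm38.p6 chr16:44485045-44558870), which presents ligand to Ptch1, was 23.9, 26.5, 35.6 and 31.4 CPM in WT 1 to 4, and 19.0, 16.3 and 14.4 CPM in Sp3-/- 1 to 3. The groups did not overlap, which was also true in the same direction of 16.7% of all genes tested. Boc fell by 0.81 on the log2 scale (SE 0.17, 95% interval -1.21 to -0.42, adjusted p = 0.0226 by edgeR), a level 1.76-fold lower. Sp3+/- libraries held 30.1, 28.8, 27.5 and 23.7 CPM and lay within or just below the WT range. Within libraries that share the first number of their title, the difference of mean log2 CPM was -0.48 for 685 (1 Sp3-/- and 1 WT library) and -1.12 for 697 (2 of each). Within both numbers the Sp3-/- libraries have no suffix and the WT libraries have suffix 3, so these differences do not separate genotype from suffix. Among libraries with no suffix alone, WT 1 (23.9) and Sp3+/- 4 (23.7) were both above the 3 Sp3-/- libraries. The call was lost when WT 3, WT 4, Sp3-/- 2 or Sp3-/- 3 was left out (log2 fold changes of -0.71, -0.78, -0.81 and -0.73, adjusted p from 0.0548 to 0.0853), and the difference was -0.57 with an adjusted p of 0.0585 with the suffix as a covariate.

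Gas1 (chr13:60174405-60177535), a membrane-anchored co-receptor that is also known as a growth arrest gene, was the single member with a positive difference. It was 14.3, 74.9, 58.5 and 44.7 CPM in WT, 84.3, 117.3, 78.5 and 47.1 in Sp3+/-, and 204.8, 150.3 and 47.1 in Sp3-/- libraries. Sp3-/- 1 and Sp3-/- 2 were above every WT library, while Sp3-/- 3 fell among them. The log2 fold change was 1.49 (SE 0.61, 95% interval 0.059 to 2.92) and was not called (adjusted p = 0.121 by edgeR). DESeq2 called it, with an adjusted p of 0.0357, as did the fit with the suffix as a covariate, where it was 2.83 with an adjusted p of 0.0329. The study also plots Gas1 among myofibroblast markers, a list chosen on these libraries.

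Gli2 (chr1:118834061-119054405), the main transcriptional activator of the pathway, had the largest difference of the 8 members in size. It was 2.67, 18.0, 21.2 and 14.4 CPM in WT, 13.9, 16.0, 14.0 and 4.77 in Sp3+/-, and 3.09, 5.65 and 1.64 in Sp3-/- libraries. The 3 Sp3-/- libraries were far below WT 2 to 4, whereas WT 1 lay among them. The log2 fold change was -1.96 (SE 0.71, 95% interval -3.62 to -0.29) and was not called (adjusted p = 0.0896 by edgeR). Without WT 1 it was -2.29 and was called, with an adjusted p of 0.00988. With the first title number as a replicate block it was -2.29 with an adjusted p of 0.0136. In that fit WT 1, the single library of its number, adds nothing to the contrast. In both fits the WT libraries left in the contrast all have suffix 3 and the Sp3-/- libraries have none. Genotype and suffix cannot be told apart there. The stretch shown above, from a window inside the gene, holds the core GGGCGG, as did 6 of 7 member windows and 35.7% of all windows. Its part in the Gli2 level was not tested.

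Gli3, which yields the main repressor form, was 26.0, 48.4, 62.3 and 46.1 CPM in WT, 37.8, 46.3, 49.3 and 28.9 in Sp3+/-, and 36.0, 29.5 and 16.9 in Sp3-/- libraries. As for Gli2, WT 1 was the lowest WT library and lay among the Sp3-/- values. The log2 fold change was -0.72 (SE 0.34, 95% interval -1.52 to 0.077, adjusted p = 0.168 by edgeR). Gli3 was called lower without WT 1, with an adjusted p of 0.0455, a fit in which genotype and suffix likewise cannot be told apart.

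Gli1, which is induced by the pathway and reports its activity, was 0.59, 1.04, 0.89 and 0.83 CPM in WT, 1.72, 0.86, 0.82 and 0.70 in Sp3+/-, and 0.72, 0.37 and 0.61 in Sp3-/- libraries. These levels rest on 6 to 51 reads a library. Gli1 passed the filter in the comparison with WT through WT 2 alone. The log2 fold change was -0.55 (SE 0.39, 95% interval -1.45 to 0.35, adjusted p = 0.332 by edgeR), and WT and Sp3-/- libraries overlapped.

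Hhip was 0.11, 0.90, 0.93 and 0.12 CPM in WT, 0.72, 0.71, 0.15 and 0.30 in Sp3+/-, and 0.17, 0.07 and 0.10 in Sp3-/- libraries, from 1 to 42 reads a library. WT 1 and WT 4 were as low as the Sp3-/- libraries. When every gene with a count was tested, its log2 fold change was -2.07 (SE 0.96, adjusted p = 0.198 by edgeR).

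Ptch1, receptor and readout at once, was 16.0, 19.3, 20.0 and 23.1 CPM in WT, 27.2, 20.3, 21.8 and 18.3 in Sp3+/-, and 18.3, 17.0 and 13.0 in Sp3-/- libraries. The log2 fold change against WT was -0.27 (SE 0.17, 95% interval -0.67 to 0.13, adjusted p = 0.281 by edgeR). Smo was 79.3, 91.7, 114.8 and 92.3 CPM in WT, 104.1, 103.9, 90.0 and 72.8 in Sp3+/-, and 101.8, 72.1 and 65.1 in Sp3-/- libraries, with a log2 fold change of -0.24 (SE 0.18, 95% interval -0.67 to 0.19, adjusted p = 0.372 by edgeR). Sufu, which holds Gli proteins in the cytoplasm, was 29.0, 39.2, 38.4 and 47.1 CPM in WT, 41.0, 36.4, 40.2 and 32.6 in Sp3+/-, and 32.7, 33.2 and 26.4 in Sp3-/- libraries, with a log2 fold change of -0.31 (SE 0.17, 95% interval -0.72 to 0.094, adjusted p = 0.231 by edgeR). For all 3 genes the groups overlapped, and the intervals reached no lower than -0.72 and no higher than 0.19.

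**Figure D2:**
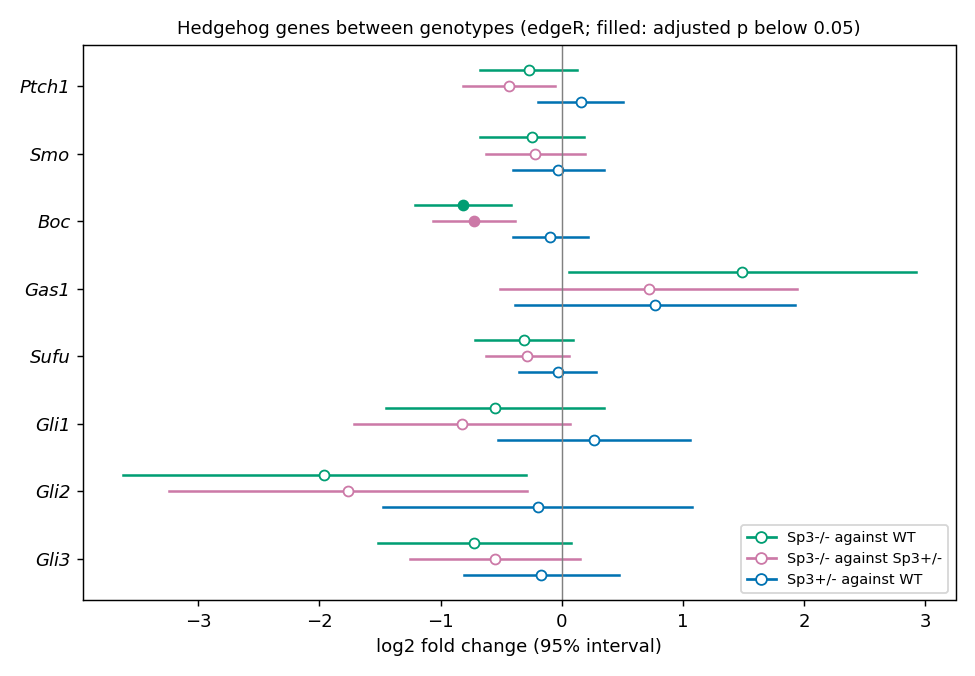
Log2 fold change of the 8 tested Hedgehog genes (points) with 95% intervals (lines) in the 3 genotype comparisons, from edgeR. Filled points have an adjusted p below 0.05. Boc is filled for Sp3-/- against WT (-0.81) and against Sp3+/- (-0.72), and no member is filled for Sp3+/- against WT.

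Sp3+/- cells carry one intact allele and allow the Sp3-/- libraries to be compared with a second set of libraries, in a fit of all 11. The Sp3-/- libraries are shared by both comparisons, so they are not independent. Of 8 members tested, 1 was called, against 25.5% of 14130 genes. It was again Boc, which fell by 0.72 on the log2 scale (SE 0.15, 95% interval -1.06 to -0.39, adjusted p = 0.00997 by edgeR), a level 1.65-fold lower. Boc was called in 11 of 11 fits that each left out 1 library. Those without a WT library keep every library of this contrast, and Boc was -0.72 to -0.73 in them. The fits against WT held fewer libraries, so the counts of calls are not comparable. With the suffix as a covariate the Boc difference was -0.46 with an adjusted p of 0.118. Boc and Ptch1 did not overlap between the genotypes, both lower in Sp3-/-, as did 18% of all genes. Ptch1 had a log2 fold change of -0.43 (SE 0.17, adjusted p = 0.0872 by edgeR), and Gli2 one of -1.76 (SE 0.67, adjusted p = 0.0753). Those of Gli1, Gli3, Sufu, Smo and Gas1 were -0.82, -0.55, -0.28, -0.22 and 0.72, with adjusted p-values of 0.156 to 0.41.

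Sp3+/- and WT cells were compared to ask whether loss of one allele alters these transcripts. None of the 8 members was called by edgeR, and none was below 0.05 before adjustment. Over all 14130 genes 0% were called and 1.74% (246 genes) were below 0.05 before adjustment, and DESeq2 and limma-voom called 0 members as well. The narrowest intervals were those of Boc (-0.40 to 0.21), Sufu (-0.35 to 0.28) and Ptch1 (-0.19 to 0.51), whereas those of Gli1 (-0.52 to 1.06), Gli2 (-1.48 to 1.08) and Gas1 (-0.38 to 1.93) reached beyond a 2-fold change.

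The members were next set out by title suffix, a contrast chosen after the data were seen. Among WT libraries Gli2 was 2.67 CPM without a suffix and 14.4 to 21.2 with suffix 3. Among Sp3+/- libraries it was 4.77 without a suffix and 13.9 to 16.0 with suffix 2 or 3. The 5 libraries without a suffix, of all genotypes, thus held 1.64 to 5.65 CPM of Gli2 and the other libraries 13.9 to 21.2, with no overlap. With genotype in the fit of 11 libraries, no suffix against suffix 3 gave a log2 fold change of -2.19 for Gli2 (SE 0.44, 95% interval -3.20 to -1.18, adjusted p = 0.0301 by edgeR). Gli2 was the 1 member called of 8, against 6.36% of all genes called and 2.51% called lower. All 8 log2 fold changes were negative, from -2.19 to -0.30, and in 7 of 8 members both Sp3-carrying libraries without a suffix (WT 1 and Sp3+/- 4) lay below all 5 libraries with suffix 3, as in 20.4% of all genes. Gli3 had a log2 fold change of -0.87 (adjusted p = 0.076), Gas1 of -1.54 (0.112) and Boc of -0.32 (0.18). The call of Gli2 was lost when WT 1, WT 2, WT 3, Sp3+/- 2, Sp3+/- 3 or Sp3+/- 4 was left out, with log2 fold changes of -1.67, -2.17, -2.10, -2.24, -2.32 and -2.74.

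Once the suffix was a covariate, Sp3-/- against WT gave a log2 fold change of 0.017 for Gli2 (adjusted p = 0.985 by edgeR) and of -0.0057 for Gli3 (0.991). Among libraries without a suffix only (WT 1 against 3 Sp3-/- libraries, with no gene called of 13752), that of Gli2 was 0.40, of Gli3 0.080, of Boc -0.53 and of Gas1 3.22. WT 1 is the lone WT library there and was assumed to vary like the Sp3-/- libraries. The signs of Boc and Gas1 were thus the same in these fits as without the suffix, and that of Gli2 was not.

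Macrophage markers moved with the suffix as well. Their summed level was 2553 to 9478 CPM in the 5 libraries without a suffix and 304 to 748 in the other 6, and all 5 markers were called higher without a suffix (log2 fold changes of 2.22 for Csf1r to 2.63 for Adgre1). The 6 proliferation genes (Mki67, Top2a, Ccnb1, Cdk1, Bub1 and Plk1) summed to 86.1 to 210.3 CPM without a suffix and to 271.9 to 490.8 with one, and Cdk1 and Plk1 were called lower. The 8 mesenchymal markers summed to 7230 to 18890 CPM without a suffix and to 20670 to 22097 with one, with 7 of 8 log2 fold changes negative, 1 called lower and a median of -0.74. Of the 4 endothelial markers Pecam1 and Cdh5 were called higher without a suffix. Over all genes 6.36% were called in this contrast, and 2.51% were called lower. The part of these lists in the Gli2 difference was not tested.

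**Figure D3:**
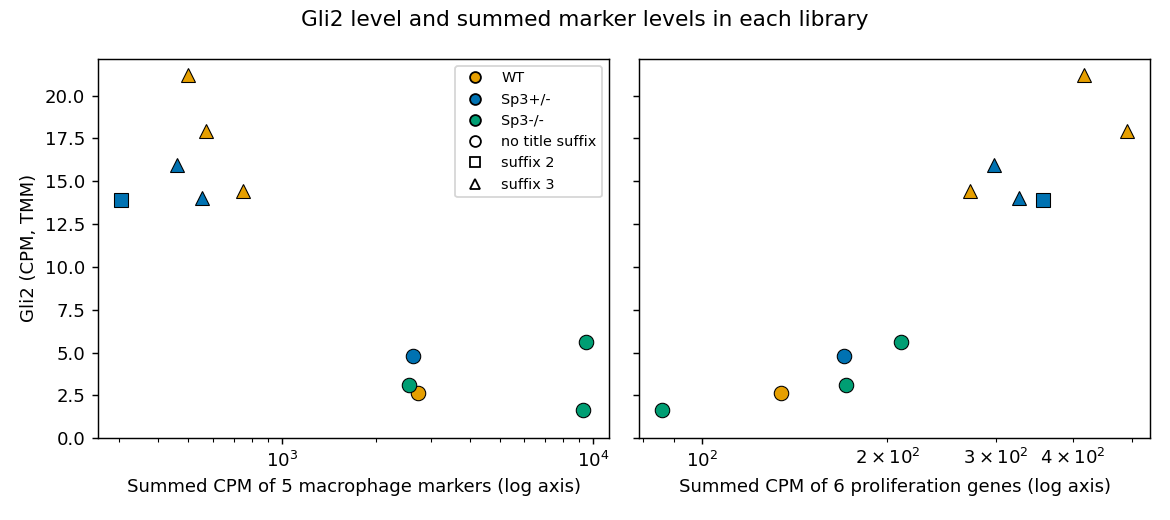
Gli2 level (CPM, linear axis) in each of 11 libraries against the summed CPM of 5 macrophage markers (left) and of 6 proliferation genes (right), both on log axes. Colours give the genotype and symbols the title suffix. The 5 libraries without a suffix lie together at 1.64 to 5.65 CPM of Gli2, with macrophage sums from 2553 CPM, whatever their genotype.

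**Figure D4:**
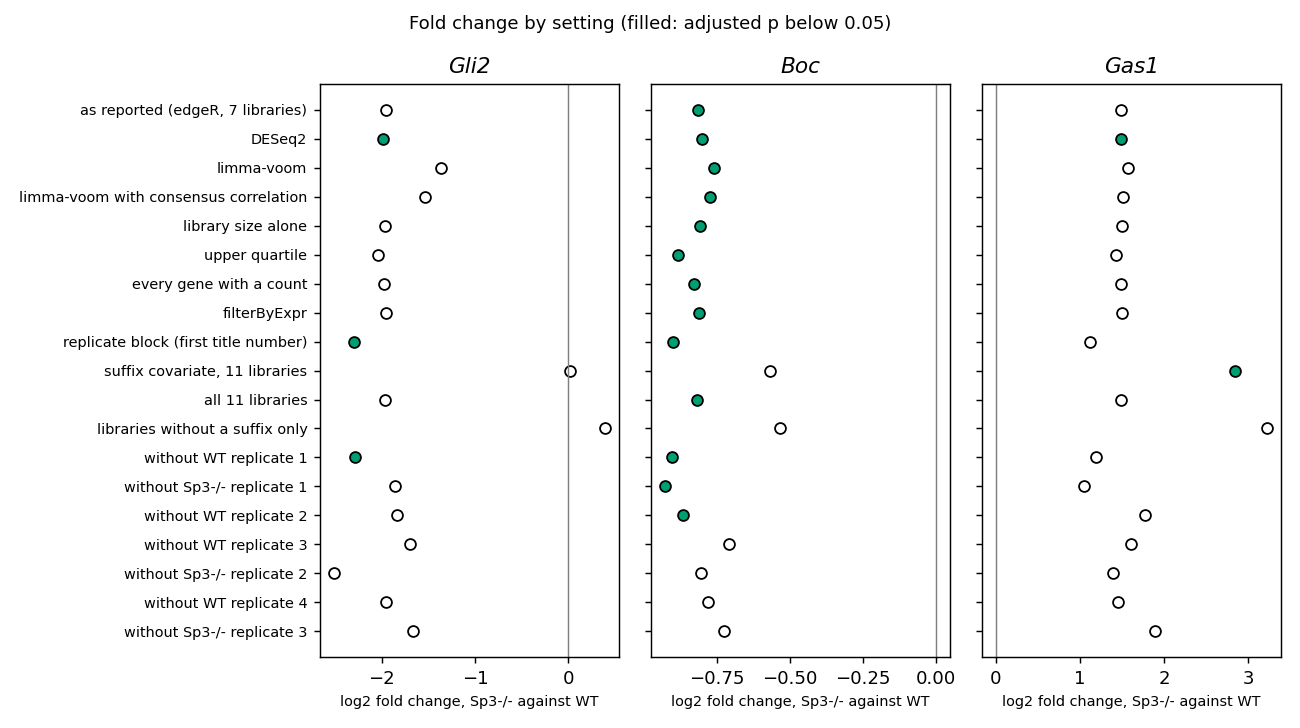
Log2 fold change of Gli2, Boc and Gas1 in Sp3-/- against WT under each setting (rows), with filled points at an adjusted p below 0.05. Boc stays below 0 and Gas1 above 0 in every row, while Gli2 is at 0.017 with the suffix as a covariate and at 0.40 in libraries without a suffix.

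Beyond the 9 members, 41 further genes of the pathway were listed by role, and 38 of them were tested in Sp3-/- against WT. Of these 14 were called by edgeR, 2 higher and 12 lower, against 18.5% of all genes tested (8.76% higher and 9.77% lower). The median log2 fold change was -0.25. Among the 12, Scube2 entered the test through a single WT library and Myocd through WT libraries alone. The lists were chosen with earlier results of these data known, so these counts are a description. Gpr161, Evc, Tulp3 and Kif7 had lower adjusted p-values than any member. Against Sp3+/-, 14 of 38 were also called, 2 higher and 12 lower, where 13% and 12.5% of all genes were called higher and lower, and in Sp3+/- against WT none was. The number called fell to 1 without Sp3-/- 2, to 3 without WT 2, to 4 without WT 3 or without WT 4 and to 7 without Sp3-/- 3, and the share of all genes called in these fits was 2.01% to 10.1%. Gpr161 was called in 7 of 7 fits that each left out 1 library, Evc and Tulp3 in 6 of 7, and Kif7, Kif3a, Ift122, Fgf10, Myocd, Foxl1, Foxf1, Disp1 and Scube2 in 1 to 3.

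Of 11 intracellular regulators, 2 were called, both lower, a share near the 18.5% of all genes. Gpr161, a ciliary receptor that keeps the pathway off through protein kinase A, was 8.01, 10.2, 12.2 and 15.03 CPM in WT, 9.55 to 10.4 in Sp3+/-, and 3.14, 2.89 and 2.97 in Sp3-/- libraries. It fell by 1.91 on the log2 scale (SE 0.25, adjusted p = 0.00851 by edgeR), with no overlap. WT 1 and Sp3+/- 4, which share the missing suffix with the Sp3-/- libraries, were well above them at 8.01 and 9.55 CPM, and with the suffix as a covariate the difference was -1.63 with an adjusted p of 0.00754. Kif7, a kinesin that organises the cilium tip and restrains Gli activity, was 11.7, 17.6, 21.6 and 20.1 CPM in WT and 7.23, 6.84 and 9.12 in Sp3-/- libraries. It fell by 1.20 (SE 0.24, adjusted p = 0.0193 by edgeR), and by 0.75 with the suffix as a covariate (adjusted p = 0.0342).

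Of 9 primary cilium genes, 3 were called lower and 2 higher, against 9.77% and 8.76% of all genes. Evc, part of a complex that passes the Smo signal on, was 34.3 to 47.2 CPM in WT and 19.5 to 25.8 in Sp3-/- libraries (log2 fold change -0.88, SE 0.14, adjusted p = 0.0132 by edgeR). Tulp3, which brings receptors such as Gpr161 into the cilium, was 89.6 to 129 CPM in WT and 62.6 to 71.6 in Sp3-/- (log2 fold change -0.80, SE 0.14, adjusted p = 0.0158). The third was Arl13b, a ciliary GTPase, at -0.45. Kif3a, a motor of ciliary transport, rose by 1.51 (SE 0.35, adjusted p = 0.0303), although Sp3-/- 1 (114 CPM) lay below WT 1 (115) and Sp3+/- 4 (124), and the other libraries of that genotype (289 and 255) stood above them. Ift122, of the retrograde transport complex, was 28.8 to 34.8 CPM in WT and 38.6 to 51.5 in Sp3-/- (log2 fold change 0.47, SE 0.12, adjusted p = 0.0347). With the suffix as a covariate Tulp3 remained called (-0.52, adjusted p = 0.0222), and Evc (-0.56, 0.0536), Kif3a (0.91, 0.124) and Ift122 (0.45, 0.102) did not.

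Of 10 mesenchymal targets, 5 were called, all lower, against 9.77% of all genes called lower. Foxf1, a forkhead factor induced by Hedgehog in lung mesenchyme, was 27.4, 46.5, 47.8 and 58.6 CPM in WT and 6.95, 12.4 and 25.8 in Sp3-/- libraries. It fell by 1.61 on the log2 scale (SE 0.46, adjusted p = 0.0497 by edgeR), and with the suffix as a covariate it was -1.11 with an adjusted p of 0.153. Foxl1, a related mesenchymal factor, was 1.95 to 3.87 CPM in WT and 0.47 to 1.23 in Sp3-/- (log2 fold change -1.84, SE 0.41, adjusted p = 0.0266). Myocd, the coactivator that drives smooth muscle genes, was 1.32 to 3.46 CPM in WT and 0.55 to 0.75 in Sp3-/- (log2 fold change -1.94, SE 0.41, adjusted p = 0.0239). Foxl1 and Myocd remained called with the suffix as a covariate, at -1.84 and -1.24. Myocd passed the filter through WT libraries alone, the group where it is high, so its place in the counts of called genes is a description. When every gene with a count was tested its adjusted p was 0.0244 by edgeR. Fgf10, the growth factor that directs budding and that Hedgehog signaling restrains, was 38.4, 43.5, 38.6 and 6.95 CPM in WT and 4.73, 4.30 and 7.68 in Sp3-/-, where WT 4 lay among the Sp3-/- values (log2 fold change -2.54, SE 0.62, adjusted p = 0.0329). Limma-voom did not call Fgf10 (adjusted p = 0.115), and with the suffix as a covariate it was -2.43 and not called (adjusted p = 0.0614). The study draws Fgf10 among developmental signaling genes, a list chosen on these libraries. Ccnd2, a D-type cyclin, was the fifth, at -0.63.

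Among 6 tested genes for ligands and their release, 2 were called lower, against 9.77% of all genes. Disp1, which releases ligand from producing cells, was 86.1 to 108 CPM in WT and 67.9 to 78.0 in Sp3-/- (log2 fold change -0.45, SE 0.10, adjusted p = 0.0277 by edgeR). Scube2, a secreted carrier of ligand, was 0.48 to 1.12 CPM in WT and 0.17 to 0.31 in Sp3-/- (log2 fold change -1.75, SE 0.49, adjusted p = 0.0454). It passed the filter through WT 4 alone, a library of the group where it is high, so its place in the counts of called genes is a description. When every gene with a count was tested its adjusted p was 0.0494. With the suffix as a covariate Disp1 was -0.48 (adjusted p = 0.0837) and Scube2 -1.42 (0.0966), and neither was called. Of 2 tested receptor genes outside the members none was called. Cdon, the co-receptor most like Boc, ranged from 29.8 to 116 CPM in WT and from 33.1 to 102 in Sp3-/- (log2 fold change -0.27, SE 0.53, 95% interval -1.50 to 0.96, adjusted p = 0.739 by edgeR), so its groups overlapped almost fully. The difference of Cdon was 0.84 with the suffix as a covariate.

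**Figure D5:**
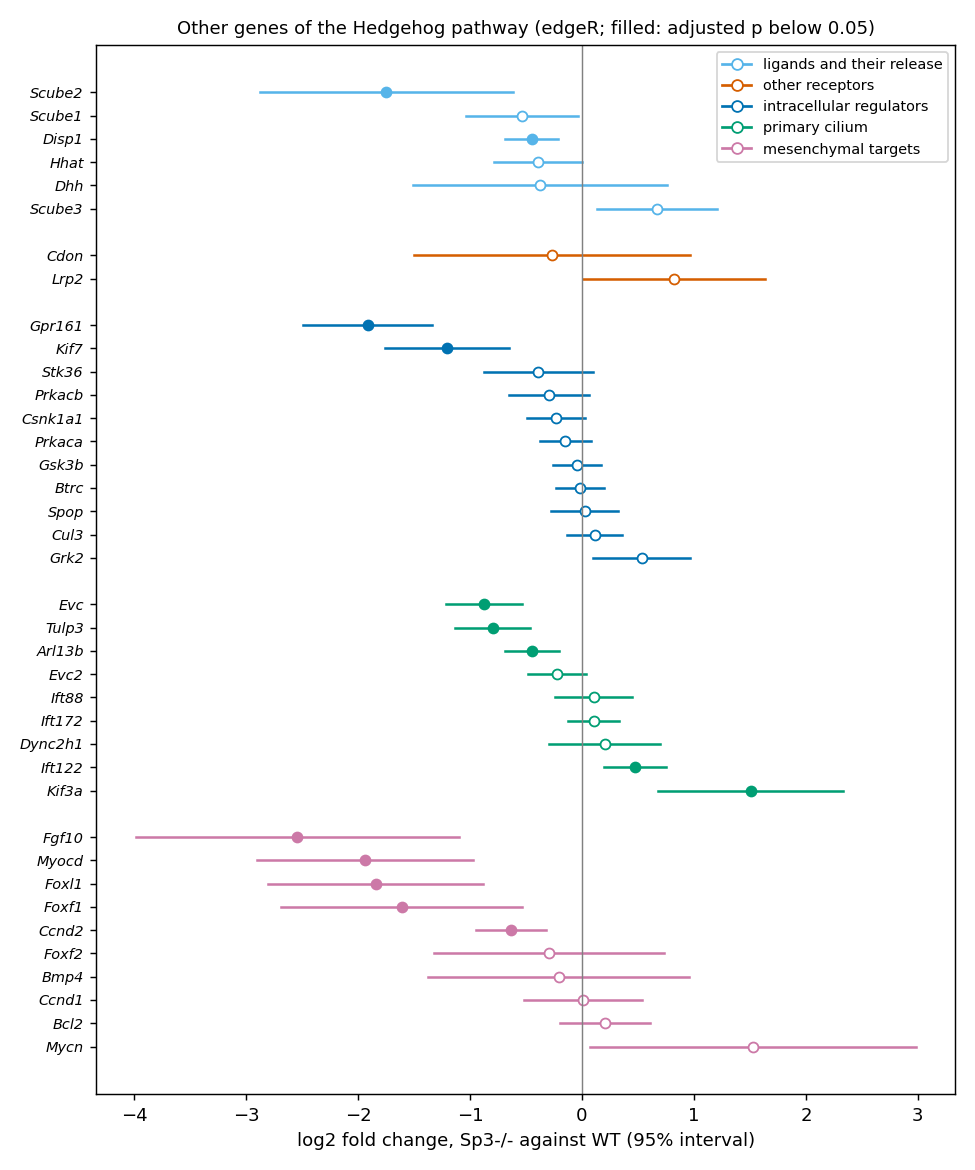
Log2 fold change, Sp3-/- against WT, of the 38 tested pathway genes outside the members (points) with 95% intervals (lines), grouped by role and coloured as in the key. Filled points have an adjusted p below 0.05 by edgeR. The filled genes to the left number 12, from Fgf10 (-2.54) to Arl13b (-0.45), and the 2 to the right are Kif3a and Ift122.

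By the root mean square difference of centred log2 CPM over the 11 libraries, the genes whose levels followed Ptch1 closely included Tnrc18 (0.095) and Lima1 (0.10). For Gli1 the closest were Klc3 (0.22), Zfp941 (0.23) and Prkd2 (0.24), and for Hhip they were Fst (0.53), Car12 (0.55) and Tenm3 (0.58). None of these genes belongs to the pathway lists. Gli1 and Hhip had low counts, and their levels also varied more between libraries than those of Ptch1. The SD of log2 CPM in WT was 0.32 for Gli1, 1.41 for Hhip and 0.22 for Ptch1. This measure grows with such spread, and the part of low counts in the larger differences was not tested.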

How the data were processed

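RNA-seq libraries of 11 cultures were analysed. The authors aligned single-end reads with STAR 2.4.5a to mm10 after FastQC 0.10.1, and deposited raw counts per gene symbol from htseq-count. The annotation version and strand setting are not given in the sources used here. The 5 tally rows for reads outside genes (38.4% to 40.9% of each library) were left out. The members and gene lists were chosen with earlier results of these data known. The test was that of edgeR 4.0.16 (R 4.3.3, TMM, robust glmQLFit, glmQLFTest) over genes exceeding 1 CPM in 1 or more libraries, in 7 libraries for Sp3-/- against WT and in 11 otherwise. CPM used TMM factors of all 11 libraries, and log2 CPM a prior count of 2. Standard errors and 95% intervals are those implied by the test statistic. No 2 libraries of a genotype matched within counting noise (lowest chi-square per degree of freedom 15.8). The scripts were tested on simulated data.

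Named were all members, Sp3, the ligands, Cdon, up to 4 called genes of largest change per pathway list, cell type markers and the 3 genes most like Gli1, Ptch1 and Hhip (mean log2 CPM above 2). The values of 2 genes under this rule are not reported here. Arl13b and Ccnd2 were added after their values were seen, and marker lists are spelled out beyond the 4 genes per list that the rule asks. Alternatives were DESeq2 1.42.0, limma-voom (limma 3.58.1) with and without a consensus correlation, library size or upper quartile scaling, other filters, the first title number as a replicate block, the suffix as a covariate, other choices of libraries and leaving out each library.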

Additional observations from a re-analysis of the deposited data

Results flagged for a closer look

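Gli2 in Sp3+/- 4 was 4.77 CPM, far from the other Sp3+/- libraries at 13.9 to 16.0, with a gap of 0.886 of the group's range on the log2 scale, past Dixon's 95% critical value. This was looked for in 18 groups of 4, and chance gives about 1 such case in 20. That library has no suffix in its title. Smo was 0.15 higher (log2) in the Sp3-/- library than in the WT library of first title number 685, and differed by -0.59 within 697, where both Sp3-/- libraries were below both WT libraries. Within both numbers the Sp3-/- and WT libraries also differ in suffix. The difference between those numbers was not tested.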

How the results depend on the processing

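Against WT, Gli2 reversed to 0.017 and Smo to 0.040 with the suffix as a covariate, and Gli2 to 0.40, Gli3 to 0.080, Ptch1 to 0.0064 and Sufu to 0.078 in libraries without a suffix, while Cdon reversed to 0.84 and 1.08 under these settings. Members called numbered 3 by DESeq2 (Gli2 and Boc lower, Gas1 higher), where 30.6% of all genes were called. They numbered 2 with the replicate block, against 28.7% of all genes. Called pathway genes numbered 7 with the suffix as a covariate, against 9.41% of all genes. Leaving out 1 library gave 0 to 3 called members and 1 to 16 pathway genes, where 2.01% to 29.9% of all genes were called. It moved Cdon between -0.80 and 0.032. Against Sp3+/-, the suffix covariate reversed Gli3 to 0.042, Smo to 0.10 and Sufu to 0.023. It left 0 called members, against 5.4% of all genes. DESeq2 and the libraries of these 2 genotypes alone gave 2 each, against 32.8% and 23.1% of all genes. Leaving out 1 library gave 1 to 2, against 10.6% to 30.1% of all genes.

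For Sp3+/- against WT, where no setting called a member, Gli2 was 0.35 by limma-voom (0.35 with consensus correlation) and 0.035 with the suffix as a covariate, where Gli1 was -0.023. Leaving out 1 library moved Gli1 between -0.051 and 0.40, Gli2 between -0.54 and 0.071, Gli3 between -0.35 and 0.019, Smo between -0.092 and 0.080, Sufu between -0.14 and 0.079 and Boc between -0.17 and 0.012. For no suffix against suffix 3, members called numbered 3 by DESeq2, against 17% of all genes. They numbered 2 by limma-voom with or without consensus correlation, against 6.12% and 5.52%. With the replicate block, where Gli1 reversed to 0.21, 0 members and 0% of all genes were called. Leaving out 1 library gave 0 to 3 called members, against 0% to 14.1% of all genes. The cause of these changes was not tested.

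Across genotypes, the 14 correlations between samples with the same first title number ran from -0.617 to 0.344 (mean 0.022). Within 685 they were 0.105 to 0.293, and the lowest, -0.617, was between WT 3 and Sp3+/- 4, which differ in suffix. Between samples with different numbers the mean was 0.00084. The highest there, 0.708, was between WT 1 and Sp3+/- 4, both without a suffix. Number and suffix both vary among these pairs, so the correlations cannot decide whether the number pairs samples. The closest library of another genotype shared the number for 2 of 11. The number was left out of the main fit. With the number as a replicate block, where WT 1 adds nothing to the contrast, 28.7% of all genes were called. Without WT 1 and without a block it was 29.9%, against 18.5% as reported. In both of these fits genotype and suffix cannot be told apart. At this depth Gli1 and Hhip are limited by counts of 51 or fewer reads.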
